A study of Mus musculus with 8 samples.

Results

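The 10 genes described here encode subunits of the mouse SWI/SNF (BAF) chromatin remodeler: Smarca4, Smarca2, Smarcb1, Smarcc1, Smarcc2, Smarcd1, Smarcd2, Smarcd3, Arid1a and Arid1b. They were chosen by name, out of 34328 protein-coding and long noncoding genes on chromosomes 1 to 19 and X, and each was followed over its locus, meaning the gene body extended by 10 kb at either end. The open chromatin of these loci was measured by ATAC-seq, in which the transposase Tn5 cuts accessible DNA, and was available as 1 list of broad peaks per library. What was measured is therefore how much of each subunit gene lay in called open chromatin, not the amount of its RNA or protein and not where the remodeler bound.

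All 8 libraries came from hindlimb satellite cells, the muscle stem cells beneath the basal lamina of the fibre, of C57BL/6 mice. There were 4 groups of 2 libraries. LncMyod siRNA cells were satellite cells in differentiation culture, in F10 medium with horse serum, that received an siRNA against the long noncoding RNA LncMyod 48 h before harvest. Control siRNA cells were cultured for differentiation with a control siRNA, for which no time was recorded. ASC were satellite cells isolated 2.5 days after muscle injury, and QSC were satellite cells isolated fresh. Whether the 2 libraries of a group stem from different animals or cultures is not stated in the labels, so the spread behind every p-value is that of these samples and may be technical. Between control siRNA cells and either isolated group, culture, differentiation and the transfection cannot be told apart. The level of LncMyod RNA, and so the knockdown, cannot be read from peak lists.

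SWI/SNF complexes use the energy of ATP to slide or evict nucleosomes and so open regulatory DNA. Each complex carries 1 of 2 alternative ATPases, Smarca4 (BRG1) or Smarca2 (BRM), on a core that holds Smarcb1, Smarcc1, Smarcc2 and 1 of the Smarcd (BAF60) proteins, and the canonical form adds Arid1a or Arid1b. In muscle, BRG1 is recruited with MyoD to myogenic genes, and the BAF60c protein encoded by Smarcd3 binds MyoD and links it to the complex.

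The promoters of these genes are shown first because nearly all lay in a peak in every library, though the width and strength of the peaks varied. RefSeq (GRCm38.p6, the build of the files) lists 11 promoter windows for the 10 genes, each from 250 bases before to 50 bases after a start site. The windows of both ATPases and of 2 BAF60 genes follow, 5′ to 3′ on the gene's strand. Capitals mark matches to CANNTG, the general E-box bound by MyoD and other basic helix-loop-helix factors, and to TGANTCA, the AP-1 motif.

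Smarca4 (chr9:21615919-21616218, plus strand): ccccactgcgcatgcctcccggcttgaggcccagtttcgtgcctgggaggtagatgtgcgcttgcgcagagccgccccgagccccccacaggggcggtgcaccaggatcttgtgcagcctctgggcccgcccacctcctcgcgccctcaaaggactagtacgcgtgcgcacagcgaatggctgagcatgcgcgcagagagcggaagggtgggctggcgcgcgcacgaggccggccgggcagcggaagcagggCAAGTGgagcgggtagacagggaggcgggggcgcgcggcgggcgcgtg
Smarca2 (chr19:26604910-26605209, plus strand): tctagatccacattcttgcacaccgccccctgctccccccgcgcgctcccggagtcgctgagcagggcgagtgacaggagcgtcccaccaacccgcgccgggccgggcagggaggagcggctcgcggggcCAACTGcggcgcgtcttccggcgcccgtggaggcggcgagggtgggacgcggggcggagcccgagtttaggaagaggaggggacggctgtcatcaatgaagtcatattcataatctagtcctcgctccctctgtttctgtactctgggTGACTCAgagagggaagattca
Smarcd1 (chr15:99702037-99702336, plus strand): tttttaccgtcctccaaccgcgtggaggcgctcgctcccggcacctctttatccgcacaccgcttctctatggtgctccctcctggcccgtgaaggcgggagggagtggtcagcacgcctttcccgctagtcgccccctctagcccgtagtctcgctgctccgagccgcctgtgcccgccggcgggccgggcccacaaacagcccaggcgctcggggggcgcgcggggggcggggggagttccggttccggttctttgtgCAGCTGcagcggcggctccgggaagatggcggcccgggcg
Smarcd3 (chr5:24601953-24602252, minus strand): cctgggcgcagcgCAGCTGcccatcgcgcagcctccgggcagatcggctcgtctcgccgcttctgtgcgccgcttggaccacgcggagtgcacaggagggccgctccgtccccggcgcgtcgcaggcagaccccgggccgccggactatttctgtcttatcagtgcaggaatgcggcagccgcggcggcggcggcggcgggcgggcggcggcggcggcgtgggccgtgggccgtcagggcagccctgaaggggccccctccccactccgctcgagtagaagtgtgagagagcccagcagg

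CAGCTG, the E-box form that MyoD favours and itself a CANNTG match, occurred in 2 of the 11 windows, with its first base at +11 of Smarcd1 and at -237 of Smarcd3, where +1 is the start site. On both strands, CAGCTG occurred in 16.3% of all 32851 promoter windows of the same length. CANNTG occurred in 6 of the 11 windows, against 72.3% of all windows, and in the 4 printed ones it stood once each, as CAAGTG at +3 of Smarca4, as CAACTG at -120 of Smarca2 and within both CAGCTG matches. TGANTCA was found in 2 windows, at +29 of Smarca2 and at -159 of Smarcb1, against 7.81% of all windows. All 11 windows held the GC box GGGCGG, against 35.7% of all windows, and their GC content ran between 55% and 81%, against a median of 52.7% over all windows. GCCATNTT, the core of the YY1 motif, was in 3 windows (Smarcd1 at +33, Arid1a at -232 and Arid1b at -138), against 6.05% of all windows, and GGAATG, the TEAD motif, was in the Smarcd3 window alone, at -83, against 14.7%. These matches describe letters in a window and not bound sites.

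The promoters of 9 of the 10 genes lay in a peak in every library. Of the 11 windows, 10 overlapped a peak in all 8 libraries, also when only peaks of −log10 q 5 or more were kept, whereas between 45.6% and 48.3% of 32619 windows on the same chromosomes did so in a single library. The exception was the window listed for Smarcd2, which lies inside the gene and held no peak in any library. At the annotated 5′ end of Smarcd2 itself, a region of 1050 bp (chr11:106272273-106273322) was present in all 8 libraries with a fold enrichment between 5.04 and 6.49. Fold enrichment here is the authors' own value per peak, over the background their peak caller estimated for that library, so folds of different libraries stand side by side as descriptions and were not tested against each other.

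Promoter peaks differed among the subunits in strength and width. The peak on the Smarcc1 promoter reached folds of 6.50 to 8.22 and that on the Smarca4 promoter 5.96 to 7.51, which placed the Smarca4 peak between the 86.7th and 95.8th percentile of its library's peaks. At the low end, the peak on the listed Smarcd3 window had folds of 2.14 to 2.47, at percentiles of 0.687 to 6.82. Its window starts 22 kb inside the gene, and a peak at the far 5′ end of Smarcd3 (chr5:24623809-24624793) was also present in all 8 libraries. The Arid1b promoter carried a wide peak, of 2953 to 3707 bp, with folds of only 2.64 to 2.81. MACS2 averages this value over a broad peak, so wide and narrow peaks are not on an equal footing.

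The loci as wholes were compared by covered length, the summed length of peaks within a locus after each library was scaled to the mean total covered length. Libraries held 59666 to 95449 peaks covering 42.4 to 64.0 Mb, with LncMyod siRNA replicate 1 at the top and ASC replicate 2 at the bottom of both ranges, and their sequencing depth is unknown. All 10 genes passed the filter of at least 200 bp in at least 2 libraries, as did 27938 genes in all. Tests used limma on log2 of scaled covered length plus 500 bp over all 8 libraries, so changes at short covered lengths are understated, with Benjamini-Hochberg adjustment over all 27938 genes and a threshold of 0.05. The satellite cell genes Pax7, Myf5, Myod1, Calcr, Cdh15 and Des all had peaks in every library, with summed lengths of 23.8 to 32.1 kb. The endothelial, fibroadipogenic and mural genes examined below also had peaks in every library. Presence of peaks at these genes therefore cannot establish cell identity.

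**Figure D1:**
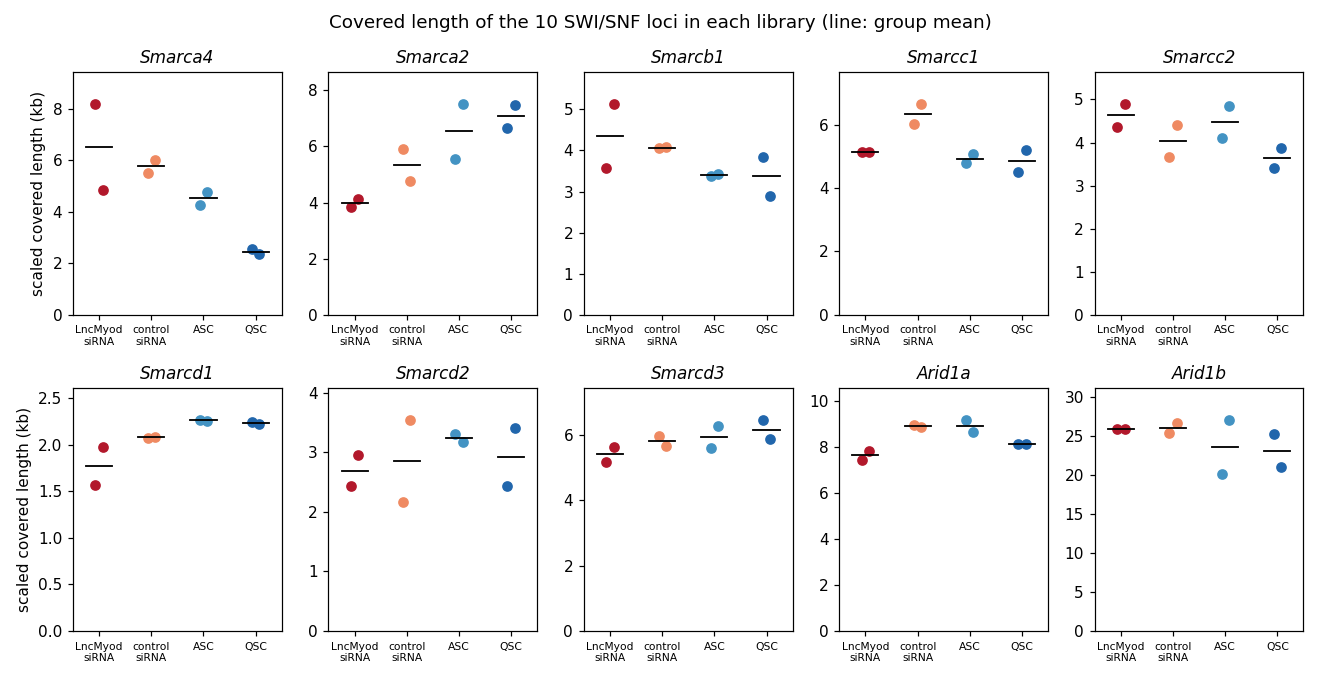
Scaled covered length (kb) of the 10 subunit loci in each of the 8 libraries, with points for libraries and lines for group means, in the order LncMyod siRNA, control siRNA, ASC and QSC. At the Smarca4 locus the 6 libraries of the other groups, at 4.28 to 8.20 kb, stand above QSC, at 2.55 and 2.35 kb, while most other loci overlap between groups.

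Of the 10 loci, 1 passed the test in any of the 4 comparisons, Smarca4 in control siRNA cells against QSC. In that comparison 1 of 10 members rose and 0 fell, against 9.96% of all genes higher and 6.95% lower (16.9% in either direction). In ASC against QSC, 0 of 10 passed, against 12.8% of all genes (7.56% higher and 5.25% lower). For control siRNA cells against ASC the count was again 0 of 10, against 3.99% of all genes (2.28% higher and 1.72% lower). Between LncMyod siRNA and control siRNA cells, 0 of 10 passed, against 0.0215% of all genes, which is 6 genes, all higher. The numbers of members with an unadjusted p under 0.05 in the same limma fits were 2 for control siRNA cells against QSC, 1 for ASC against QSC, 1 for control siRNA cells against ASC and 2 for LncMyod siRNA against control siRNA cells. The split of calls over all genes depended on the scaling: between ASC and QSC 2112 were higher and 1468 lower, against 1614 and 1720 with quantile normalization, and between control siRNA cells and ASC 636 were higher and 480 lower, against 283 and 85 with no scaling.

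The median log2 change over the 10 members was 0.13 for control siRNA cells against QSC, beside 0 over all genes tested. It was 0.03 for ASC against QSC, beside 0.06 over all genes, and -0.01 for control siRNA cells against ASC, beside -0.08. For LncMyod siRNA against control siRNA cells it was -0.07, beside -0.05 over all genes. As a group, the subunit loci thus stood within 0.13 of the median gene in every comparison. The comparisons share libraries (QSC, ASC and control siRNA each enter more than once), so they are not independent of each other.

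**Figure D2:**
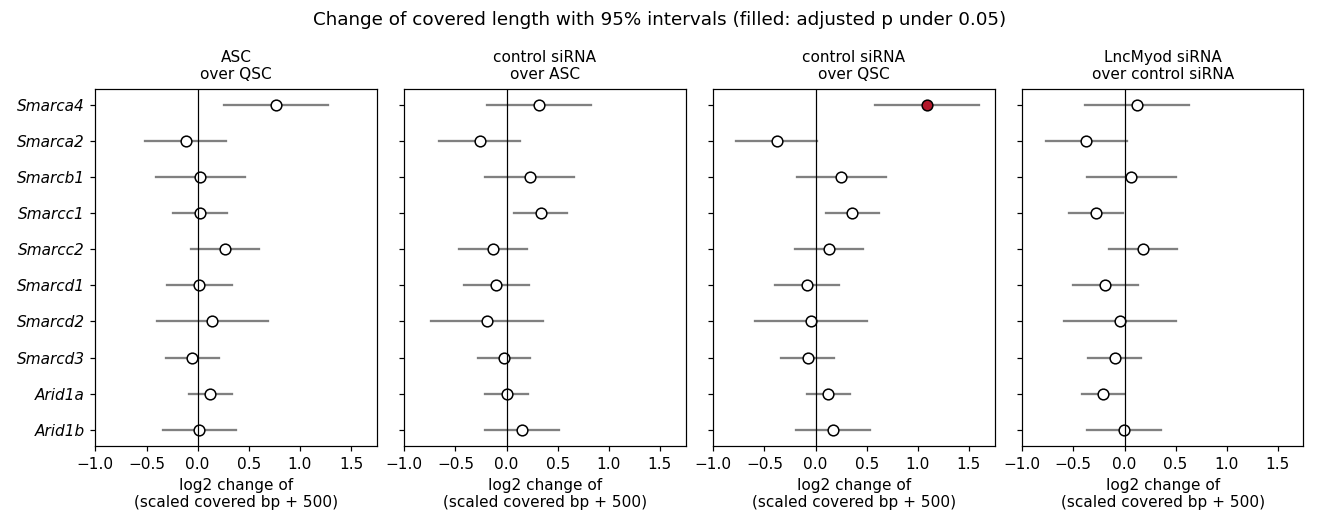
Log2 change in covered length of each subunit locus in the 4 comparisons, with 95% intervals from limma and filled points for changes that passed an adjusted p of 0.05. Smarca4 in control siRNA cells against QSC, at 1.09, is the only filled point among the 40.

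Smarca4, the BRG1 ATPase, had the clearest difference. Its locus (gene body chr9:21616106-21704230, plus strand, 88.1 kb) had 8.20 and 4.86 kb of scaled covered length in LncMyod siRNA cells, 5.52 and 6.01 kb in control siRNA cells, 4.28 and 4.76 kb in ASC and 2.55 and 2.35 kb in QSC. Both QSC libraries lay below all 6 others, and the LncMyod siRNA pair was spread more widely than any other pair. Control siRNA cells averaged 5.77 ± 0.349 kb and QSC 2.45 ± 0.141 kb (SD, n = 2 each), a log2 change of 1.09 (SE 0.22, 95% interval 0.58 to 1.60, limma adjusted p = 0.0179). The locus held 9 and 8 peaks in control siRNA cells and 4 and 3 in QSC. With any 1 of the 4 libraries left out the log2 change was 1.03 to 1.14, with a larger error and an adjusted p of 0.0847 to 0.123. The call was also lost with no scaling (1.17, adjusted p = 0.0651) and with peak lists of equal length (0.71, adjusted p = 0.108). It was kept on peaks of −log10 q of at least 5 (1.05, limma adjusted p = 0.00361), with quantile normalization (1.06) and with the gene body alone (1.16). By peak number it was kept narrowly (0.85, limma adjusted p = 0.0494).

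ASC averaged 4.52 ± 0.344 kb at Smarca4, against the 2.45 kb of QSC, a log2 change of 0.77 (95% interval 0.26 to 1.27) that missed the threshold (adjusted p = 0.0612). With only peaks of −log10 q of at least 5, the change between ASC and QSC came to 0.07 (adjusted p = 0.850), with 2 and 1 peaks left in ASC and 2 and 1 in QSC. On the same stricter lists, control siRNA cells held 5 and 4 peaks and rose over ASC by 0.98 (adjusted p = 0.00932), whereas on the full lists that change was 0.32 (95% interval -0.19 to 0.83, adjusted p = 0.426). LncMyod siRNA cells averaged 6.53 ± 2.36 kb, and their log2 change against control siRNA cells was 0.12 (95% interval -0.38 to 0.63, adjusted p = 0.911). That value was -0.22 without LncMyod siRNA replicate 1 and 0.47 without replicate 2.

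Markers of leukocytes were likewise lowest in both QSC libraries. Over Ptprc, Itgam, Laptm5, Cd68, Csf1r and C1qa, the summed covered length was 10.7 and 13.8 kb in LncMyod siRNA cells, 13.0 and 12.6 kb in control siRNA cells, 9.73 and 8.16 kb in ASC and 5.08 and 5.99 kb in QSC. Ptprc, Itgam and Laptm5 had no peak in either QSC library, C1qa had none in QSC replicate 1, and Ptprc had none in either LncMyod siRNA library. Their part in the Smarca4 result was not tested. QSC did not hold the lowest value in the sums for endothelial (10.6 to 14.8 kb), fibroadipogenic (6.37 to 10.7 kb), mural (at most 12.3 kb) or glial genes (2.35 to 4.50 kb). In bulk cells, a smaller share of cells with an open locus and a less open locus in each cell cannot be told apart.

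The difference at Smarca4 lay outside its promoter peak. The promoter peak had scaled lengths of 0.882 and 1.09 kb in LncMyod siRNA cells, 1.06 and 1.07 kb in control siRNA cells, 1.09 and 1.26 kb in ASC and 1.25 and 1.19 kb in QSC. All other peaks of the locus summed to 7.31 and 3.76 kb in LncMyod siRNA cells, 4.46 and 4.95 kb in control siRNA cells, 3.19 and 3.50 kb in ASC and 1.30 and 1.16 kb in QSC. The promoter length was not lower in QSC than in control siRNA cells, whereas the remainder was lowest in both QSC libraries. These sums divide the value already tested and carry no test of their own.

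**Figure D3:**
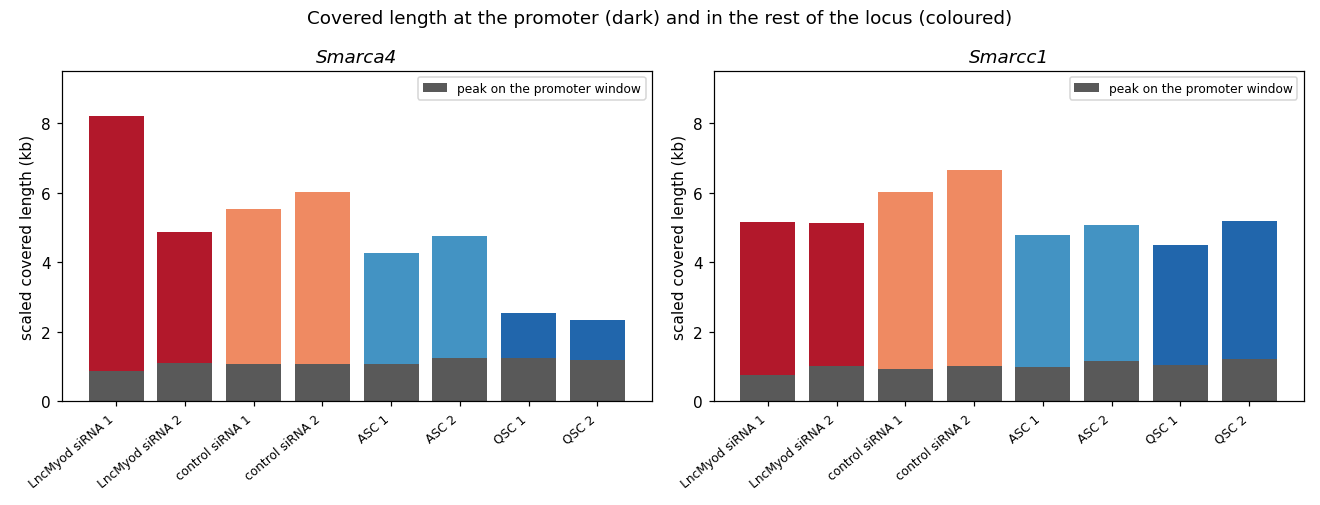
Scaled covered length (kb) of the promoter peak and of all other peaks at Smarca4 and Smarcc1 in each library, in the order LncMyod siRNA, control siRNA, ASC and QSC. At Smarca4 the promoter part stays between 0.882 and 1.26 kb, and the other peaks reach 7.31 kb in LncMyod siRNA cells and are lowest in QSC, at 1.30 and 1.16 kb.

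Where the Smarca4 peaks lay was read from regions, made by merging overlapping peaks of all 8 libraries (141301 genome-wide, median width 648 bp). A region is called specific to a group in a comparison when both its libraries held it and the other group's libraries did not. No exact test on 2 against 2 libraries can pass a threshold of 0.05, and region counts are descriptions. The Smarca4 locus had 19 regions, of which 2 were held by all 8 libraries and 9 by a single library. Of the 141301 regions genome-wide, 35293 were held by all 8 libraries and 36791 by a single one. Of the 11 Smarca4 regions held by any control siRNA or QSC library, 3 (27.3%) were specific to control siRNA cells, near the 19.9% over all regions. The strongest (chr9:21683900-21686968, 69.3 kb into the gene, 3069 bp) was held by both LncMyod siRNA libraries at folds of 2.82 and 2.61, both control siRNA libraries at 4.02 and 3.46 and ASC replicate 1 at 2.48. The next (chr9:21706962-21707291, in the downstream flank) was held by both control siRNA libraries alone, at 3.31 and 2.64. The third (chr9:21698762-21699877, near the 3′ end) was held by both control siRNA libraries at 2.58 and 2.39 and by LncMyod siRNA replicate 1 at 2.16. All 3 were weak beside the promoter peak.

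**Figure D4:**
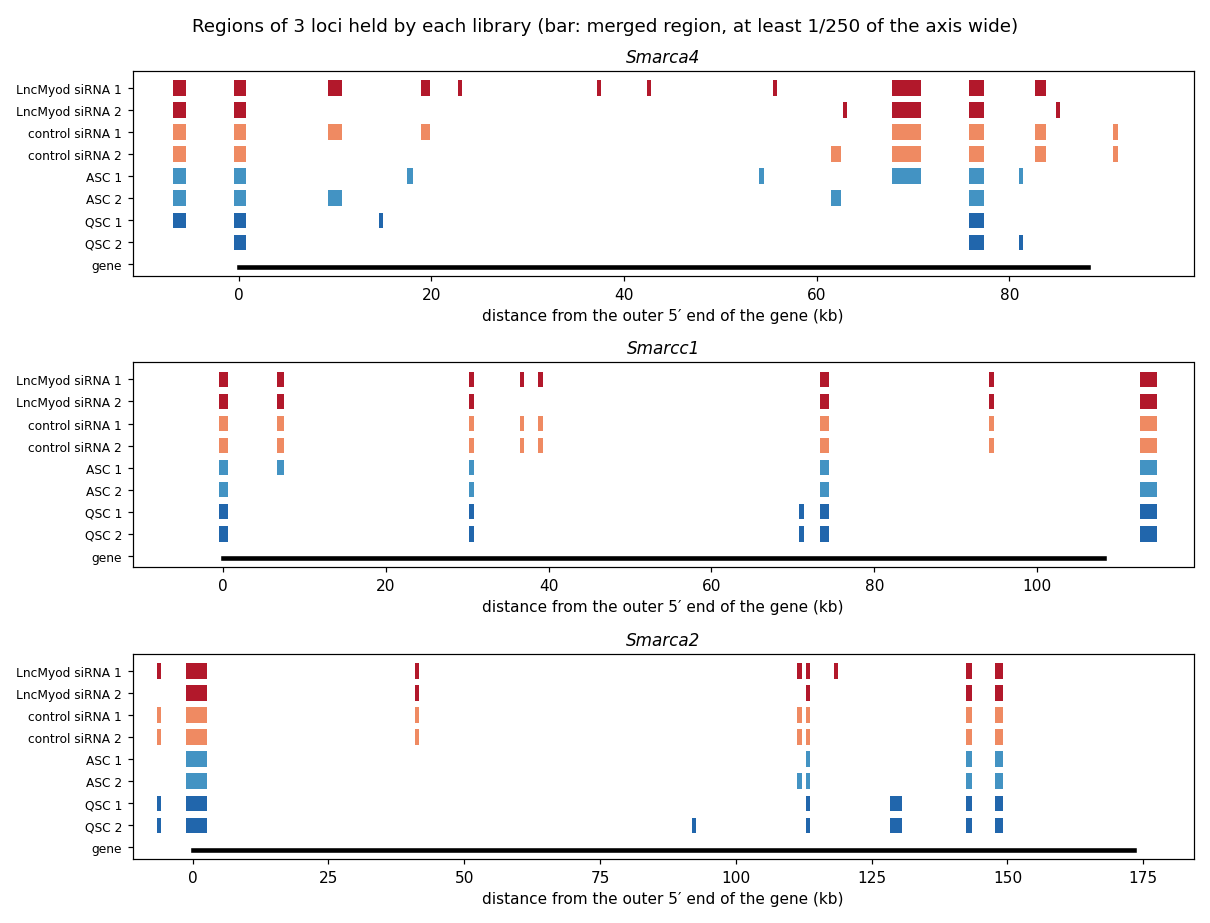
Regions of the Smarca4, Smarcc1 and Smarca2 loci by distance from the gene start (kb). Each library has a row, from LncMyod siRNA at the top to QSC at the bottom, and colour marks the group. Promoter regions run through all 8 rows, and the gene bodies of Smarca4 and Smarcc1 carry regions in the cultured rows that are missing in the QSC rows.

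Smarca2, the alternative ATPase BRM, ran the other way without passing the test. Its locus (gene body chr19:26605073-26778321, plus strand) had 3.84 and 4.12 kb in LncMyod siRNA cells, 5.90 and 4.76 kb in control siRNA cells, 5.54 and 7.53 kb in ASC and 6.66 and 7.47 kb in QSC. Both LncMyod siRNA values were the lowest of the 8, and ASC overlapped both control siRNA cells and QSC. The log2 change was -0.38 for control siRNA cells against QSC (95% interval -0.77 to 0.01, adjusted p = 0.169) and -0.37 for LncMyod siRNA against control siRNA cells (95% interval -0.77 to 0.02, adjusted p = 0.546). It was -0.26 for control siRNA cells against ASC (adjusted p = 0.403), where peak numbers gave 0.34, and -0.12 for ASC against QSC (adjusted p = 0.726), where equal list lengths gave 0.14. The lower LncMyod siRNA and control siRNA values were not matched by fewer peaks, since the locus held 9 and 6 peaks in LncMyod siRNA cells, 7 and 8 in control siRNA cells, 4 and 5 in ASC and 7 and 9 in QSC.

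Part of the spread at Smarca2 was in the width of the promoter peak. Its scaled length was 0.631 and 0.762 kb in LncMyod siRNA cells, 2.93 and 0.754 kb in control siRNA cells, 3.22 and 3.69 kb in ASC and 0.876 and 1.52 kb in QSC. Both ASC libraries and control siRNA replicate 1 held a wide promoter peak, and the other 5 libraries a narrower one. All other peaks of the locus summed to 3.21 and 3.36 kb in LncMyod siRNA cells and 2.97 and 4.01 kb in control siRNA cells. In ASC these sums were 2.32 and 3.84 kb, and in QSC 5.78 and 5.95 kb, above every other library. The 2 parts divide the value already tested and carry no test of their own. Outside the promoter, a region 6.2 kb upstream (chr19:26598625-26599057, within the annotated Gm52395) had folds of 3.32 and 3.34 in control siRNA cells and 4.72 and 5.57 in QSC, was held by LncMyod siRNA replicate 1 at 2.89 and was absent from both ASC lists. A region of 2065 bp within the gene (chr19:26733526-26735590) was held by QSC alone, at 2.93 and 3.76. A short region (chr19:26646182-26646569) was held by all 4 cultured libraries and by no isolated one, at 2.84 and 2.82 in LncMyod siRNA cells and 3.45 and 2.87 in control siRNA cells.

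Among the core subunits, Smarcc1 (BAF155, a scaffold of the complex) had the largest changes in the 3 comparisons that involve control siRNA cells, none past the threshold. In ASC against QSC its estimated change was small. Its locus (gene body chr9:110132024-110240178, plus strand) had 5.14 and 5.12 kb in LncMyod siRNA cells, 6.02 and 6.66 kb in control siRNA cells, 4.78 and 5.07 kb in ASC and 4.50 and 5.18 kb in QSC. After scaling, both control siRNA libraries lay above the other 6. Before it, LncMyod siRNA replicate 1, at 6424 bp, lay above control siRNA replicate 1, at 6161 bp. The log2 change was 0.36 for control siRNA cells against QSC (SE 0.11, 95% interval 0.10 to 0.62, adjusted p = 0.0689). It passed with the gene body alone (0.64) and with equal list lengths (0.47). On peaks of −log10 q of at least 5 it was 0.18 (limma adjusted p = 0.519), and with 1 library left out 0.27 to 0.45. Against ASC the log2 change was 0.33 (95% interval 0.07 to 0.60, adjusted p = 0.138). It passed with equal list lengths (0.57) and was 0.17 on peaks of −log10 q of at least 5 (limma adjusted p = 0.510). For LncMyod siRNA against control siRNA cells it was -0.28 (95% interval -0.54 to -0.02, adjusted p = 0.476), and on peaks of −log10 q of at least 5 it was 0.02. For ASC against QSC it was 0.02 (95% interval -0.24 to 0.29, adjusted p = 0.946).

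Several Smarcc1 regions were present in culture and missing in QSC. Of 9 regions, 4 were held by all 8 libraries, against 35293 of 141301 genome-wide. Another 4 (44.4%) were specific to control siRNA cells against QSC, where the share over all regions was 19.9%. The strongest of these (chr9:110138666-110139570, 7.1 kb into the gene) had folds of 5.47 and 5.01 in LncMyod siRNA cells, 5.77 and 5.12 in control siRNA cells and 2.54 in ASC replicate 1. The next (chr9:110226047-110226729, 94.4 kb in) had 4.82 and 3.97 in LncMyod siRNA cells and 5.66 and 4.54 in control siRNA cells, with no peak in ASC or QSC. A further pair, 36.8 and 39.0 kb into the gene, was held by both control siRNA libraries and LncMyod siRNA replicate 1. In the other direction, a region 71.1 kb in (chr9:110202747-110203431) was held by QSC alone, at 4.43 and 4.09.

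Smarcb1 and Smarcc2 are the remaining core genes. Over these genes, the BAF60 genes and the Arid genes, log2 changes lay between -0.08 and 0.25 for control siRNA cells against QSC, between -0.05 and 0.27 for ASC against QSC and between -0.19 and 0.22 for control siRNA cells against ASC, and none passed. These ranges depended on the measure. With the gene body alone they were, in the same order, -0.44 to 0.51, -0.51 to 0.28 and -0.11 to 0.67. By peak number, the range for ASC against QSC was -0.02 to 0.64. None passed in these settings either. Smarcb1 (SNF5, gene body chr10:75896769-75921614, minus strand) had 3.56 and 5.14 kb in LncMyod siRNA cells, 4.06 and 4.08 kb in control siRNA cells, 3.39 and 3.44 kb in ASC and 3.84 and 2.90 kb in QSC. A pair of its regions was held by the 6 libraries other than QSC. The region 15.7 kb into the gene (chr10:75905738-75906161) had folds of 2.88 to 5.29 in those 6 libraries, and the region 8.9 kb upstream (chr10:75930291-75930720), which lies in the neighbouring Mmp11, had 2.75 to 4.14. Smarcc2 (BAF170, gene body chr10:128459182-128490591, plus strand) had 4.36 and 4.91 kb in LncMyod siRNA cells, 3.67 and 4.40 kb in control siRNA cells, 4.11 and 4.84 kb in ASC and 3.40 and 3.87 kb in QSC. At Smarcb1 both control siRNA values lay above those of ASC and QSC and inside the spread of LncMyod siRNA cells, and at Smarcc2 both QSC values lay below those of LncMyod siRNA cells and ASC. A Smarcc2 region (chr10:128468616-128469298) was held by LncMyod siRNA cells alone, at 2.44 and 2.75, and another at the 3′ end (chr10:128490205-128490561) by all 4 cultured libraries alone, at 2.35 to 3.03. The strongest region of the Smarcc2 locus lay on the promoter of Myl6b, a myosin light chain gene in its flank, so covered length there is not all that of Smarcc2.

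The 3 BAF60 genes, whose products are alternatives in the complex, had log2 changes in covered length between -0.19 and 0.14 over the 4 comparisons. Smarcd3 (gene body chr5:24592622-24624456, minus strand) had 5.18 and 5.64 kb in LncMyod siRNA cells, 5.98 and 5.67 kb in control siRNA cells, 5.61 and 6.27 kb in ASC and 6.47 and 5.88 kb in QSC. Smarcd1 (gene body chr15:99702287-99713995, plus strand) had 1.56 and 1.98 kb in LncMyod siRNA cells, 2.07 and 2.08 kb in control siRNA cells, 2.27 and 2.26 kb in ASC and 2.24 and 2.23 kb in QSC. Smarcd2 (gene body chr11:106263171-106272998, minus strand) had 2.44 and 2.95 kb in LncMyod siRNA cells, 2.16 and 3.54 kb in control siRNA cells, 3.31 and 3.17 kb in ASC and 2.43 and 3.41 kb in QSC. Of the 6 Smarcd2 regions, 1 lay in the gene body and 2 on promoters of other genes, so this length is largely that of its flanks. The loci of Smarcd1, Smarcd3, Smarcb1, Smarca2 and Arid1a each held 1 region on the promoter of another gene. At Smarcd1 both LncMyod siRNA values were the lowest and both isolated groups lay above both cultured ones, though no change there passed the test. That order depended on scaling, since ASC replicate 2 was the lowest before it, at 1869 bp.

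At Smarcd3, the BAF60 gene tied to MyoD, 5 of 10 regions were held by all 8 libraries, against 35293 of 141301 genome-wide. The remaining Smarcd3 regions varied. A region 5.5 kb upstream of the gene (chr5:24629797-24630150) was held by all 4 cultured libraries, at 3.75 and 3.11 in LncMyod siRNA cells and 4.54 and 3.54 in control siRNA cells, and by neither ASC nor QSC. A region in the downstream flank (chr5:24591170-24591672, within Chpf2) was held by the 6 libraries other than QSC, at 2.42 to 4.17. The reverse pattern occurred at chr5:24598438-24598890, which was held by both ASC libraries at 2.82 and 2.40, both QSC libraries at 3.03 and 2.31 and LncMyod siRNA replicate 1 at 1.99, and by no control siRNA library. The strongest region common to all libraries (chr5:24611695-24612707) had folds of 5.33 and 4.50 in LncMyod siRNA cells, 6.73 and 6.32 in control siRNA cells, 5.57 and 4.59 in ASC and 3.96 and 3.43 in QSC. Smarcd2 had no region specific to any group, and at Smarcd1 a downstream region (chr15:99717384-99717982, within Gm16537 and Gpd1) was held by the 6 libraries other than QSC.

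Arid1a and Arid1b encode the alternative ARID subunits that define the canonical BAF complex. Arid1a (gene body chr4:133679008-133756769, minus strand) was the most uniform locus, with 8 of its 10 regions held by all 8 libraries, against 35293 of 141301 regions genome-wide. Its covered length was 7.44 and 7.83 kb in LncMyod siRNA cells, 8.97 and 8.85 kb in control siRNA cells, 9.18 and 8.64 kb in ASC and 8.14 and 8.11 kb in QSC. After scaling, both LncMyod siRNA values were the lowest of the 8. Before scaling, LncMyod siRNA replicate 1, at 9295 bp, was the highest. Against control siRNA cells the log2 change of LncMyod siRNA cells was -0.21 (95% interval -0.42 to -0.00, unadjusted p = 0.0481, adjusted p = 0.504), and -0.11 with no scaling. A region 66.1 kb into the gene (chr4:133690297-133691137) was held by both control siRNA libraries at 2.53 and 3.58 and both ASC libraries at 3.58 and 2.57, and by no LncMyod siRNA or QSC library.

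Arid1b (gene body chr17:4994297-5347656, plus strand, 353 kb) was the longest locus and supplied 70 of the 154 regions of all members. Its covered length was 25.8 and 25.8 kb in LncMyod siRNA cells, 25.3 and 26.6 kb in control siRNA cells, 20.1 and 27.1 kb in ASC and 25.2 and 21.0 kb in QSC, and the groups overlapped. Of the 70 regions, 14 (20%) were held by all 8 libraries, against 35293 of 141301 genome-wide. Of the 53 regions held by any control siRNA or QSC library, 13 (24.5%) were specific to control siRNA cells and 5 (9.43%) to QSC, near the shares of 19.9% and 10.4% over all regions. Intronic and exonic positions were not assigned, since no exon annotation was used.

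Of the regions specific to a group, those with the highest folds are named here to show where they lie. Specific to control siRNA cells against QSC were chr17:5091867-5092577 (4.36 and 4.83 in LncMyod siRNA cells, 7.12 and 4.49 in control siRNA cells, 3.01 in ASC replicate 2) and chr17:5330291-5331735 (4.83 and 4.15 in LncMyod siRNA cells, 4.65 and 4.48 in control siRNA cells, 3.75 and 3.58 in ASC). A short region at chr17:5201911-5202193 was held by the 4 cultured libraries alone, at 4.11 and 3.79 in LncMyod siRNA cells and 6.52 and 4.39 in control siRNA cells. QSC alone held chr17:5050368-5050674 at 3.55 and 3.16, chr17:5260911-5262481 at 3.24 and 3.03 and chr17:5101186-5102151 at 2.74 and 3.15. QSC also held chr17:5273711-5274071, at 3.89 in LncMyod siRNA replicate 1, 4.32 and 3.43 in control siRNA cells and 6.05 and 5.44 in QSC, with no peak in ASC. Among regions shared by all libraries, chr17:5189488-5190423 was the strongest by its lowest fold, at 6.92 to 8.98.

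A few Arid1b regions separated the siRNA groups. Control siRNA cells but not LncMyod siRNA cells held chr17:5284539-5285101, at folds of 2.81 and 3.10 in control siRNA cells and 5.18 and 3.63 in QSC, with no peak in ASC. They also held chr17:5348454-5348717 (3.44 and 2.75 in control siRNA cells, no other library) and chr17:5179173-5181534 (2.59 and 2.65 in control siRNA cells, 2.97 in ASC replicate 1, 6.40 and 6.61 in QSC). LncMyod siRNA cells but not control siRNA cells held chr17:5286176-5287651, at 2.37 and 2.30, which QSC held at 2.59 and 2.37. They also held chr17:5341656-5342599, at 2.29 and 2.51, as did ASC replicate 2 at 2.89.

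**Figure D5:**
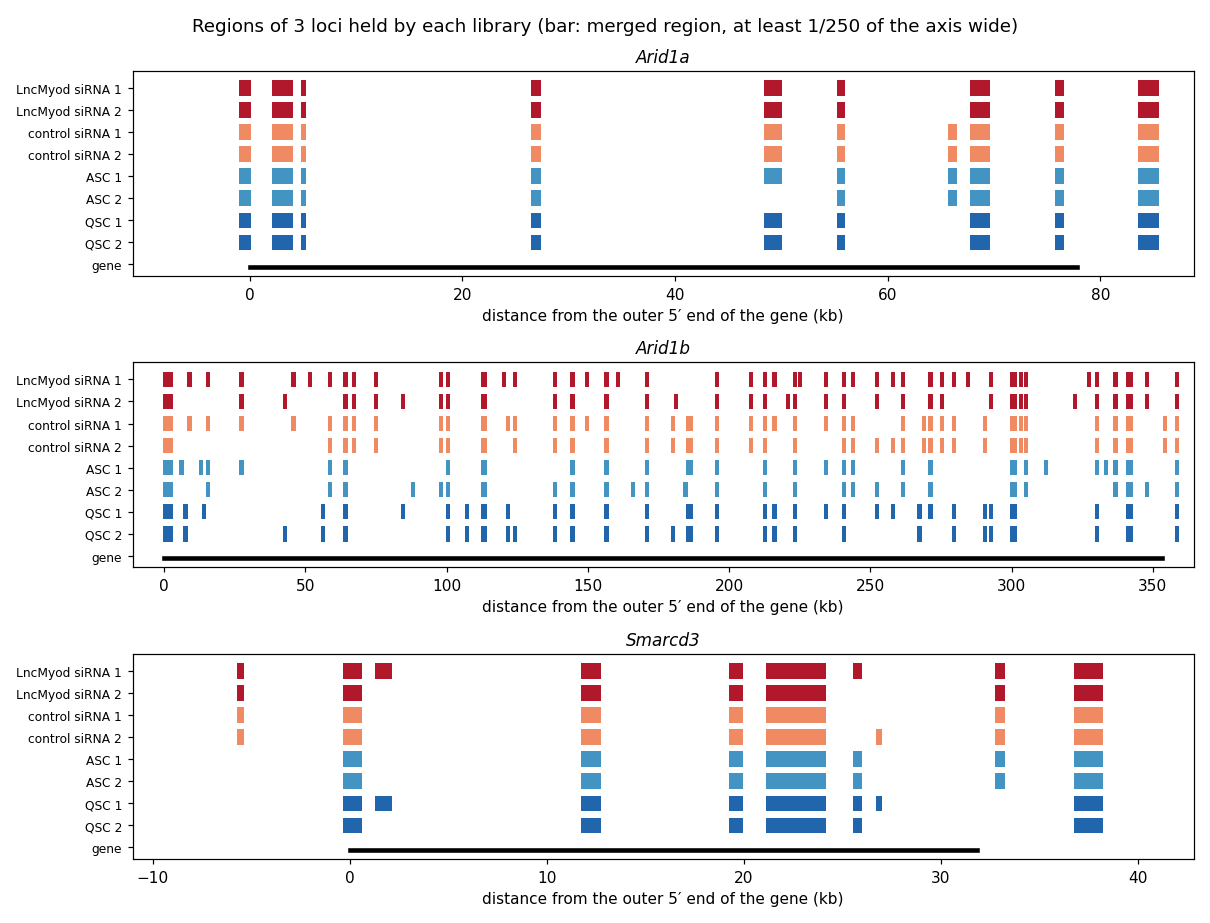
Regions of the Arid1a, Arid1b and Smarcd3 loci by distance from the gene start (kb). Each library has a row, from LncMyod siRNA at the top to QSC at the bottom, and colour marks the group. Of the Arid1a regions 8 of 10 run through all rows, against 14 of 70 at Arid1b.

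The shares of regions specific to a group were set beside those of the whole genome. Of the member regions held by any library of the pair of groups, 23.6% were specific to control siRNA cells and 6.50% to QSC, against 19.9% and 10.4% of all regions. In control siRNA cells against ASC, 16.7% were specific to control siRNA cells and 0.833% to ASC, against 15.6% and 3.52% of all regions. Between ASC and QSC, 9.91% were specific to ASC and 11.7% to QSC, against 8.65% and 12.3%. Between LncMyod siRNA and control siRNA cells, 2.22% were specific to LncMyod siRNA cells, or 3 regions, and 5.19% to control siRNA cells, or 7 regions, against 2.66% and 1.72% of all regions. On peaks of −log10 q of at least 5 these last counts were 0 and 2, without LncMyod siRNA replicate 1 they were 12 and 16, and without its replicate 2 they were 18 and 7. Of the 7 regions, 5 lay at Arid1b.

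Regions present in culture and missing from isolated cells were followed into LncMyod siRNA cells. Of the 154 member regions, 15 (9.74%, against 8.73% of all regions) were held by both control siRNA libraries and by no ASC or QSC library. Of these 15, both LncMyod siRNA libraries held 9, 1 of them held 3 and neither held 3, so that 60.0% were held by both and 20% by neither, against 54.7% and 9.52% for such regions genome-wide. A further 10 member regions (6.49%, against 3.79%) were held by all ASC and control siRNA libraries and by no QSC library, and both LncMyod siRNA libraries held 70.0% of these, against 85.0% genome-wide. QSC alone held 6 (3.90%, against 5.18%). With 15 and 10 regions these shares are descriptions.

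The other subunits of SWI/SNF complexes, 19 genes listed beside the 10, are set beside all genes tested. In control siRNA cells against QSC 4 of 19 rose and 0 fell, against 9.96% of all genes higher and 6.95% lower, with a median log2 change of 0.11 beside 0 over all genes: Pbrm1 (BAF180, of the PBAF form) by 0.77 (adjusted p = 0.0199), Actl6b (BAF53b, known as a neuronal subunit) by 0.73 (adjusted p = 0.0163), Arid2 (BAF200, also of PBAF) by 0.62 (adjusted p = 0.0228) and the beta-actin gene Actb by 0.61 (adjusted p = 0.0266). Between ASC and QSC 3 of 19 rose and 0 fell, against 7.56% of all genes higher and 5.25% lower, with a median of 0.20 beside 0.06: Actl6b by 0.65 (adjusted p = 0.0285), Arid2 by 0.61 (adjusted p = 0.0284) and Actb by 0.58 (adjusted p = 0.0380). In LncMyod siRNA against control siRNA cells, and in control siRNA cells against ASC, 0 of 19 passed in limma, against 0.0215% and 3.99% of all genes. At an unadjusted p under 0.05 there were 2 and 4. The Arid2 locus averaged 7.29 ± 0.836 kb (SD, n = 2) in control siRNA cells, 7.25 ± 0.771 kb in ASC and 4.57 ± 0.525 kb in QSC. Actl6b had little covered length, on average 1.70 kb in control siRNA cells, 1.57 kb in ASC and 0.822 kb in QSC. How the calls among these 19 genes depend on the processing is not given here.

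Remodelers of the ISWI, CHD, INO80 and related families, 24 genes, were read as a comparison. In control siRNA cells against QSC 1 of 24 rose and 2 fell, against 9.96% of all genes higher and 6.95% lower. Chd6 rose by 0.81 (adjusted p = 0.0233), Smarcad1 fell by 0.80 (adjusted p = 0.0153) and the ISWI ATPase gene Smarca1 fell (adjusted p = 0.0248). Smarca1 was listed at 0 in both control siRNA libraries, so no fold is given, and averaged 0.969 kb in ASC and 0.585 kb in QSC. It also fell in control siRNA cells against ASC (adjusted p = 0.0286), where 0 of 24 rose and 1 fell, against 2.28% and 1.72% of all genes. Between ASC and QSC 1 of 24 rose and 1 fell, against 7.56% of all genes higher and 5.25% lower. Chd3 of the NuRD complex rose by 0.50 (adjusted p = 0.0277) and Baz2b fell by 0.41 (adjusted p = 0.0432). Between LncMyod siRNA and control siRNA cells 0 of 24 passed, against 0.0215% of all genes, with 3 at an unadjusted p under 0.05 in limma.

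The loci most like Smarca4 over the 8 libraries were those of the kinase gene Mtor (Pearson r = 0.984), Dnajc5 (0.975) and Sptbn5 (0.975), out of 10035 genes more than 1 Mb away or on other chromosomes with a mean of at least 2 kb. For Smarcd3 they were Ppp2r1b (0.965), Srsf1 (0.964) and Rsrp1 (0.959), out of 10063. These are the highest of many correlations over 8 libraries in 4 groups that share each library's scaling, and they are given as descriptions.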

How the data were processed

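ATAC-seq of 8 libraries of mouse satellite cells was analysed from deposited broad-peak lists, 1 per library and not pooled. The submitters' processing notes name MACS2 2.1.1, Bowtie2 2.3.2, Trimmomatic 0.36, SAMtools 1.3, Picard 2.9.2, bcl2fastq 2.19, bedtools 2.26.0 and the build mm10. Not given in the sources used here are their settings, the filter applied to the lists and any Tn5 shift of read ends. A deposited peak has a display score, a fold enrichment (a ratio over local background), a −log10 p and a −log10 q as the authors' caller gave them. The score was not used, and the −log10 q served only for the stricter lists. Without read counts the depth is unknown: deeper libraries can yield longer lists, and the absence of a peak does not show that DNA was closed.

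Covered length per locus was scaled to each library's total, and limma 3.58.1 in R 4.3.3 was fitted with a trended prior to log2 of that length plus 500 bp (4 group means, 4 residual degrees of freedom), with Benjamini-Hochberg adjustment over 27938 genes. The fit was also run on simulated data with independent noise and no difference in depth between libraries. Such a run does not show how the fit performs on these peak lists. Loci, promoter windows and sequences come from RefSeq, GRCm38.p6, matched by symbol for all 10 genes. Named regions were, per locus and comparison, up to 3 specific to a group, ranked by the lower fold of its 2 libraries, and the strongest region held by all 8. Named other genes were those past the threshold. Groups follow the labels, 1 of which spells its treatment LndMyod Knockdown. The labels name no batch. Alternatives were another scaling (none, quantile), a pseudocount of 2000 bp, no filter, stricter or equal-length lists, the gene body alone, peak number, a 50% overlap, a replicate block, a fit on 4 libraries and leaving out each library. Members and gene lists were chosen with earlier results of these data known.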

Additional observations from a re-analysis of the deposited data

How the results depend on the processing

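No library carries a read count, so depth limits every statement that a region is missing. Leaving out a library leaves 1 in its group, which is then assumed to vary like the other groups, and raises the error. With any 1 left out, 0 members were called in each comparison (lowest 0, highest 0), against 1 for control siRNA cells against QSC with all libraries. There the Smarca4 change was 1.03 to 1.14 (SE 0.287 to 0.296, against 0.215 with all libraries). The count of members was 0 with no scaling and 2 with the gene body alone (Smarca4 1.16 and Smarcc1 0.64). For control siRNA cells against ASC 1 member was called on the stricter lists and 1 on equal-length lists.

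Deviations of libraries with the same replicate number were only weakly correlated between groups (0.00783 to 0.0964). Such correlations cannot show whether these libraries shared a preparation or run, which the labels do not state. With a replicate block, Smarca4 in control siRNA cells against QSC kept its call (adjusted p = 0.0275) and no member's call changed, while calls over all genes came to 551 for control siRNA cells against ASC and 0 for LncMyod siRNA against control siRNA cells.

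Calls over all genes between ASC and QSC (3580) were 1820 with no scaling, 1182 with only the 4 libraries and 712 to 2997 with 1 library left out. Between control siRNA cells and ASC (1116) they were 368 with no scaling, 2066 on stricter lists, 2995 on equal-length lists, 694 with the 4 libraries and 0 to 707 with 1 left out. Between control siRNA cells and QSC (4726) they were 1016 to 1291 with 1 left out. Between LncMyod siRNA and control siRNA cells (6) they were 38 with no scaling, 10 with quantile normalization, 10 with a pseudocount of 2000 bp, 14 on stricter lists, 23 on equal-length lists, 50 with the gene body alone, 187 by peak number, 0 with the 4 libraries and 0 to 343 with 1 left out.

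Regions specific to ASC against QSC (11) numbered 7 with a 50% overlap, 3 on stricter lists and 11 to 21 with 1 library left out, and those specific to QSC 14 to 19. Regions specific to ASC against control siRNA cells (1) numbered 3 with a 50% overlap and 1 to 8 with 1 left out, and those specific to control siRNA cells 23 to 27. Against QSC, regions specific to control siRNA cells numbered 31 to 37 and those to QSC 8 to 12 with 1 left out. Regions specific to LncMyod siRNA cells (3) numbered 0 on stricter lists and 4 to 18 with 1 left out, and those specific to control siRNA cells (7) numbered 2 and 7 to 16.

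The sign of 26 of the 40 member changes turned under at least 1 alternative, and none of these 26 was called. For ASC against QSC, Smarca2 turned to 0.137 on equal-length lists and 0.034 with the gene body alone (-0.32 to 0.087 with 1 library left out), and Smarcc1 to -0.036 with no scaling, -0.037 with quantile normalization, -0.10 on equal-length lists and -0.090 by peak number (-0.068 to 0.12 with 1 left out). Smarca2 in control siRNA cells against ASC was 0.34 by peak number. For LncMyod siRNA against control siRNA cells, Smarca4 was -0.041 on equal-length lists and -0.070 by peak number (-0.22 to 0.47 with 1 left out), and Smarcc1 was 0.020 on stricter lists. Where no construction of the alternative shows it, the cause was not tested.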
